A study of Mus musculus with 2 samples.

Results

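Galectin-3-high cells with transcripts of Mmp12 were rare among Cx3cr1-YFP-positive cells of the mouse retina, and 49 of the 50 cells found came from the light-damaged library. They were chosen by 2 transcripts alone: at least 20 unique molecular identifiers (UMIs, each standing for 1 captured transcript) of Lgals3 per 10000 UMIs of the cell, and at least 1 UMI of Mmp12. Cells entered with 300 or more genes and no more than 10% of UMIs from the mitochondrial genome. Of 6799 such cells in the light-damaged library, 49 met the rule, a share of 0.721% (exact Clopper-Pearson 95% interval 0.534% to 0.952%). Of 3948 in the control library, 1 met it (0.0253%, 0.000641% to 0.141%). In all, 50 of 10747 cells were members.

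The retinas came from male CB6F1 mice of 8 months carrying Cx3cr1-YFP, a reporter that makes cells using the fractalkine receptor gene fluoresce, and both groups shared this strain, sex and age. The control group had no light damage, and whether its mice were dark-adapted or given eye drops is unclear from the labels. The light-damaged group spent a night in the dark, had its pupils dilated with atropine sulfate and phenylephrine hydrochloride, and received 10 klux of LED light for 4 h with 5 days of recovery. Retinas of 5 to 8 mice were pooled per group, live YFP-positive cells were sorted after collagenase A and DNase I digestion and staining with PE, and each pool gave 1 library of 3' end transcripts. With 1 library per group there is no replicate check and no test. Intervals are given at 95% for the error of counting UMIs or cells, and they leave out differences between mice, pools or single cells.

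Lgals3 encodes galectin-3, a protein that binds sugar chains and is made by macrophages that take up debris. Mmp12 encodes macrophage elastase, a protease that cuts elastin and other matrix proteins. Microglia, the resident macrophages of the retina, use few galectin-3 transcripts at rest, whereas macrophages filled with lipid use the intermediate filament vimentin (Vim) and the lipid droplet coat protein perilipin 2 (Plin2) together with galectin-3. Cells short of amino acids, or under strain in protein folding or redox balance, raise the transcription factor ATF4, which switches on genes such as Ddit3 and Trib3.

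The members had a median of 10311 UMIs per cell (3143 to 31755) and 2983 genes, and 579952 UMIs in sum. They were set beside 2 other sets of light-damaged cells. The first, called resident-marker cells, had less than 20 Lgals3 UMIs per 10000 and at least 10 UMIs per 10000 of the microglia genes P2ry12, Tmem119, Siglech, Gpr34 and P2ry13 together (5509 cells, median 7045 UMIs). The second, called Gpnmb and Ms4a7 cells, had at least 5 UMIs per 10000 of Gpnmb, Ms4a7 and Fabp5 together and less than 10 of the microglia sum (851 cells, median 10335 UMIs). Of the 49 members, 33 also met the second rule and were taken out of that set, and 3 reached the microglia sum of 10. The Gpnmb and Ms4a7 set itself held 103 cells with at least 20 Lgals3 UMIs per 10000 and no Mmp12 UMI. The libraries shared 47 barcodes, none of them a member.

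The genes of the rule are given as a description, since they chose the cells. Lgals3 ranged from 20.2 to 181 UMIs per 10000 over the 49 cells, with a median of 49.3. Its summed level was 5956 CPM, its UMIs scaled to 1000000 UMIs of the set, against 77.0 CPM in resident-marker cells and 1103 CPM in Gpnmb and Ms4a7 cells. In control resident-marker cells it was 7.70 CPM. Just inside the limit, 8 members had 20 to 25 Lgals3 UMIs per 10000, and just outside it, 7 cells with an Mmp12 UMI had 15 to 20. The galectin-3 values thus formed no separate group at the limit.

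Mmp12 was unevenly spread among the members. Its 707 UMIs lay between 0.315 and 248 per 10000, with a median of 2.94. A single UMI placed 16 cells in the set, and 14 cells had 10 or more. The highest cell held 29.7% of all Mmp12 UMIs of the members. Among cells outside the set, 0.799% of resident-marker cells (44 of 5509) and 3.17% of Gpnmb and Ms4a7 cells (27 of 851) had an Mmp12 UMI. A further 125 light-damaged cells reached the galectin-3 limit with no Mmp12 UMI, at a median depth of 13573 UMIs.

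On GRCm38, the assembly named mm10, Lgals3 (ENSMUSG00000050335) spans chr14:47367751-47386160 of the plus strand, and like the next 3 genes it is protein-coding. Mmp12 (ENSMUSG00000049723) spans chr9:7344381-7369499 (plus). Vim (ENSMUSG00000026728) spans chr2:13573927-13582826 (plus) and Plin2 (ENSMUSG00000028494) chr4:86648386-86670060 (minus).

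The 2 marker genes that the rule did not use were both present. Vim was found in 48 of 49 members, with 0 to 76.2 UMIs per 10000 and a median of 13.6. Its summed level was 2500 CPM, 25.3-fold that of resident-marker cells (23.9 to 26.9) and 5.09-fold that of Gpnmb and Ms4a7 cells (4.80 to 5.40). Plin2 was also found in 48 of 49 members, with 0 to 50.7 UMIs per 10000 and a median of 7.63. Its level of 1138 CPM was 14.9-fold that of resident-marker cells (13.7 to 16.3) and 2.94-fold that of Gpnmb and Ms4a7 cells (2.70 to 3.20). With every cell thinned to 3000 UMIs, the mean share over all random draws with a Vim UMI was 92.2% of members, 15.4% of resident-marker cells and 51.0% of Gpnmb and Ms4a7 cells. The same shares for Plin2 were 81.2%, 15.8% and 52.8%. Single cells overlapped, since the highest Vim level was 21.5 UMIs per 10000 in resident-marker and 74.3 in Gpnmb and Ms4a7 cells. Vim and Plin2 levels rose together over the 49 cells (Pearson r = 0.51, Spearman rho = 0.48), a description of cells that share 1 library.

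The label of macrophage was checked against markers of other cell types, and the members turned out to be of 2 sorts. Cd74, the invariant chain of MHC class II molecules, had 0 UMIs in 30 members and at most 2.54 UMIs per 10000 in 36, called Cd74-low here. In the other 13, called Cd74-high, it ran from 58.5 to 543, and no member lay between. This division at 50 UMIs per 10000 was chosen after the values were seen, so nothing about Cd74 or its companions below is a test. The Cd74-high and Cd74-low cells overlapped in galectin-3, with medians of 65.3 and 44.4 Lgals3 UMIs per 10000.

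**Figure D1:**
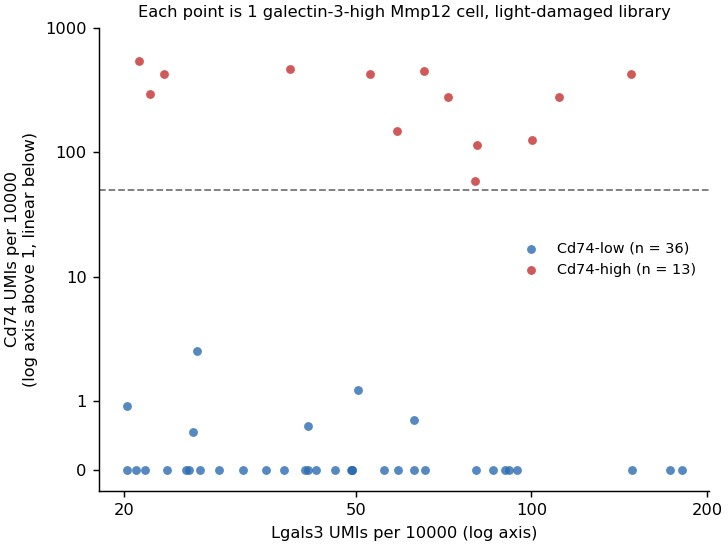
Cd74 against Lgals3, both in UMIs per 10000, for the 49 members of the light-damaged library, with the division at 50 Cd74 UMIs per 10000 as a dashed line. The 13 Cd74-high cells lie at 58.5 to 543, the 36 Cd74-low cells at 2.54 or less, and both span low and high Lgals3.

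Markers of monocytes and of microglia divided along the same line. The 10 monocyte or macrophage markers summed to 99.7 CPM in Cd74-low and 1242 CPM in Cd74-high members, against 218 CPM in resident-marker and 1756 CPM in Gpnmb and Ms4a7 cells. Among them, Ccr2, the receptor that draws monocytes out of the blood, had 0 UMIs in Cd74-low members and 3 UMIs in Cd74-high members, and Vcan was at 0 in both. The 10 microglia markers summed to 4714 CPM in Cd74-low and 1047 CPM in Cd74-high members, against 15151 CPM in resident-marker and 4774 CPM in Gpnmb and Ms4a7 cells. Both sums include genes that chose the comparison sets, so the levels in those sets were partly fixed by the rules. Among the microglia markers these were P2ry12, Tmem119, Siglech, Gpr34 and P2ry13. Among the monocyte or macrophage markers it was Ms4a7, at 1043 CPM in Gpnmb and Ms4a7 cells. Sall1, a transcription factor gene tied to microglial identity, was at 36.2 CPM in Cd74-low members, found in 13 of 36 cells, and had 0 UMIs in the 13 Cd74-high members. It was at 109 CPM in resident-marker and 3.73 CPM in Gpnmb and Ms4a7 cells.

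Markers of other cell types were low or at 0, apart from Glul. Markers of perivascular macrophages summed to 6.90 CPM in the members, with Cd163, Lyve1, Pf4, F13a1, Cbr2 and Cd209f at 0. Dendritic cell markers summed to 19.0 CPM, with Flt3, Xcr1, Clec9a and Cd209a at 0. Neutrophil markers summed to 12.1 CPM, and those of T, NK or B cells and of erythrocytes had 0 UMIs. Rod markers summed to 41.4 CPM, against 107 CPM in resident-marker and 145 CPM in Gpnmb and Ms4a7 cells. Markers of Mueller glia or astrocytes summed to 184 CPM, nearly all of it Glul, the glutamine synthetase gene, at 181 CPM with a UMI in 39 of 49 members, beside 571 CPM in resident-marker and 205 CPM in Gpnmb and Ms4a7 cells. Rlbp1, Aqp4, Gfap and Dkk3 of that list were at 0. Endothelium or pericyte markers summed to 20.7 CPM in 5 members, against 6.68 CPM in resident-marker and 5.70 CPM in Gpnmb and Ms4a7 cells, with Pecam1, Cldn5, Cdh5, Rgs5, Pdgfrb and Kcnj8 at 0. The part of these cell types in the results was not tested. Doublet scoring by Scrublet did not work at its automatic threshold, which marked 1 of 6799 light-damaged cells. Of the 370 light-damaged cells with the highest scores, none was a member.

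Mitochondrial and ribosomal transcripts were low in most Cd74-low members. The mitochondrial share ran from 0.00653% to 2.58% of UMIs per cell in these 36, with a median of 0.377%. In the 13 Cd74-high members the median was 1.70%, in resident-marker cells 2.57% and in Gpnmb and Ms4a7 cells 2.02%. A share under 0.5% was found in 21 of 36 Cd74-low members, 1 of 13 Cd74-high members, 0.472% of resident-marker cells and 4.47% of Gpnmb and Ms4a7 cells. Members made up 22 of the 97 light-damaged cells with such a share. In the control library 156 of 3948 cells had it.

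The median share of UMIs from ribosomal protein genes was 7.48% in Cd74-low and 19.8% in Cd74-high members, against 21.4% in resident-marker and 19.1% in Gpnmb and Ms4a7 cells. Over the 49 members the 2 shares rose together (r = 0.65, rho = 0.62). Gene diversity went the other way. At 3000 UMIs per cell the median number of genes was 1462.5 in Cd74-low members, 1027 in Cd74-high members, 1202 in resident-marker cells and 1093 in Gpnmb and Ms4a7 cells. The part of a low mitochondrial share in the levels below was not tested.

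**Figure D2:**
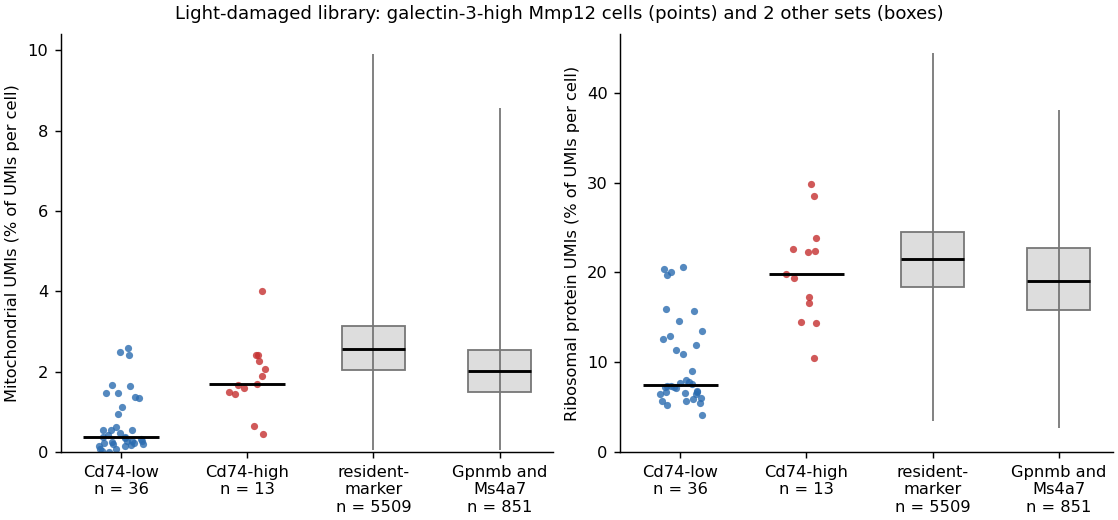
Share of UMIs from the mitochondrial genome (left) and from ribosomal protein genes (right) per cell of the light-damaged library. Points are members with the median as a bar, and boxes show quartiles, median and full range of the other sets; medians of the mitochondrial share were 0.377%, 1.70%, 2.57% and 2.02% from left to right.

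The first comparison set the 49 members beside the resident-marker cells. Ratios were taken between summed CPM, and a gene was counted when it differed at least 2-fold with at least 20 CPM in either set. Of 6252 genes at that level, 27.4% were higher and 8.73% were lower in the members, and the median log2 ratio of all genes was 0.51. Counts of list genes are read against these shares. The second comparison used the Gpnmb and Ms4a7 cells, where 30.7% of 6072 genes were higher and 4.87% lower, with a median of 0.64. For Cd74-low members alone, 36.2% of 6583 genes were higher and 8.39% lower than in resident-marker cells.

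**Figure D3:**
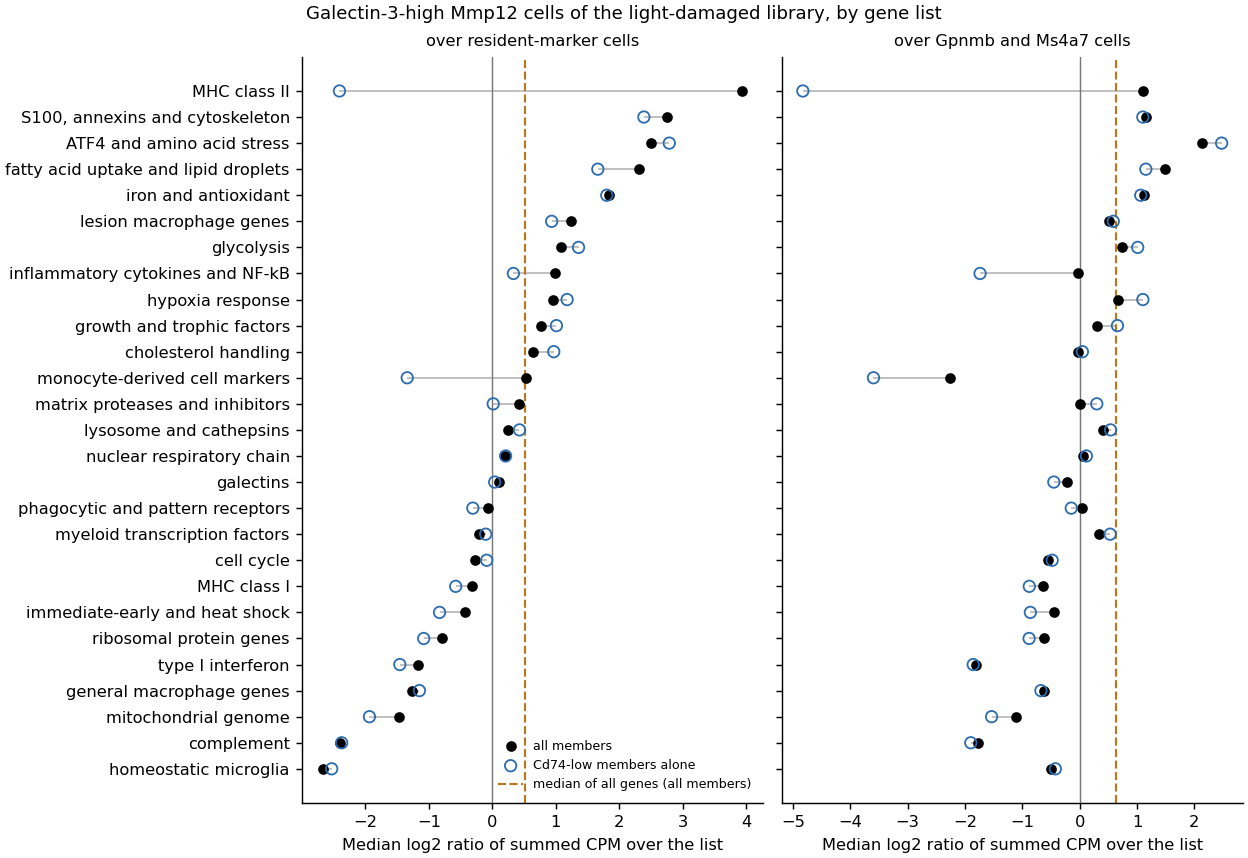
Median log2 ratio of summed CPM by gene list, members over resident-marker cells (left) and over Gpnmb and Ms4a7 cells (right), light-damaged library. The list of perivascular macrophage markers is not drawn. Its medians were -2.06 over 2 measured genes on the left and -4.39 over 6 on the right. Filled points are all 49 members, open points the 36 Cd74-low members, and the dashed line is the median of all genes for all members (0.51 and 0.64); the MHC class II list changes sides between filled and open points, from 3.94 to -2.41 on the left.

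Genes of the cytoskeleton and of calcium-binding proteins were higher in most cases. Of 22 measured genes of the S100, annexin and cytoskeleton list, 19 were higher and 1 lower than in resident-marker cells, with a median log2 ratio of 2.75. Against Gpnmb and Ms4a7 cells 13 were higher and 1 lower, with a median of 1.16. Capg, which caps actin filaments, was at 1048 CPM, 8.22-fold the level in resident-marker cells (7.55 to 8.94) and 6.08-fold that in Gpnmb and Ms4a7 cells (5.53 to 6.67). Anxa2 was 8.77-fold (7.18 to 10.6) and Anxa5 5.80-fold (5.35 to 6.29) the level in resident-marker cells. Tmsb4x, which binds actin monomers, was the gene that was lower, 2.35-fold (2.29 to 2.41). Anxa1, an annexin of the response to glucocorticoids, belonged to the Cd74-high cells alone, with 65 UMIs in 12 of 13 and 0 UMIs in the 36 Cd74-low members. S100a4, S100a6 and S100a11, with 43.3, 296 and 238 CPM in Cd74-high members, had 0, 52.1 and 40.8 CPM in Cd74-low members.

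Lipid genes followed Plin2 in part. Of 9 measured genes of fatty acid uptake and lipid droplets other than Fabp5, 5 were higher and none lower than in resident-marker cells (median 2.31), and 5 were higher and 1 lower than in Gpnmb and Ms4a7 cells (median 1.49). Lpl, the lipase that frees fatty acids from lipoproteins, was at 552 CPM, 8.64-fold the resident-marker level (7.67 to 9.70) and 10.8-fold the Gpnmb and Ms4a7 level (9.37 to 12.5). It was at 700 CPM in Cd74-low and 79.4 CPM in Cd74-high members. Hilpda, an inhibitor of lipolysis on droplets, was at 348 CPM, 15.3-fold the resident-marker level (13.1 to 17.8). Fabp4, one of the 5, rested on 13 UMIs in 1 cell. Fabp5, a fatty acid carrier gene used in the rule of the Gpnmb and Ms4a7 cells, was found in 36 members at 1533 CPM in sum.

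Apolipoprotein E, the main lipid carrier protein of glia, did not go with the droplets. Apoe was found in every member, at 7.24 to 624 UMIs per 10000 with a median of 31.3, and its sum of 7159 CPM was 2.34-fold lower than in resident-marker cells (2.27 to 2.41) and 9.81-fold lower than in Gpnmb and Ms4a7 cells (9.51 to 10.1). In the Gpnmb and Ms4a7 cells the median was 707 UMIs per 10000 and the sum 70215 CPM. In resident-marker cells the median of 30.2 was close to that of the members, and its highest cell reached 2309, above the highest member. Over all 174 cells past the galectin-3 limit, Apoe was higher than in resident-marker cells, by 0.85 on the log2 scale. Soat1, which esterifies cholesterol for storage, was 4.59-fold higher (3.82 to 5.46) and the lysosomal lipase gene Lipa 3.35-fold higher (2.92 to 3.84) than in resident-marker cells. Of the 14 measured cholesterol genes, 6 were higher and 1 lower in that comparison, and 2 of 15 were higher and 3 lower against Gpnmb and Ms4a7 cells.

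The genes of amino acid stress formed the list that stood highest against the Gpnmb and Ms4a7 cells. Of 12 measured genes of the ATF4 list, 8 were higher and none lower than in resident-marker cells (median 2.50), and 10 of 11 were higher and none lower than in Gpnmb and Ms4a7 cells (median 2.13). Ddit3, which encodes the stress transcription factor CHOP, was found in 34 of 49 members at 0 to 26 UMIs per 10000, a range within that of resident-marker cells, of which 26.3% had a Ddit3 UMI and the highest reached 46.5. Its 695 CPM were 13.1-fold the resident-marker level (11.8 to 14.6) and 5.63-fold the Gpnmb and Ms4a7 level (5.02 to 6.31). Atf4 itself was at 897 CPM, 6.47-fold (5.91 to 7.08) and 4.62-fold (4.18 to 5.09). Trib3, a pseudokinase gene that ATF4 and CHOP switch on, had 100 UMIs in 24 members. At 172 CPM it was 223-fold the resident-marker level (150 to 340) and 16.3-fold the Gpnmb and Ms4a7 level (12.3 to 21.7).

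These stress transcripts sat in the Cd74-low cells. Ddit3 was at 899 CPM in Cd74-low and 43.3 CPM in Cd74-high members, found in 30 of 36 and 4 of 13 cells. Trib3 was found in 24 of 36 Cd74-low members, at up to 15.7 UMIs per 10000, and had 0 UMIs in Cd74-high members. Slc3a2, the heavy chain of amino acid transporters, was at 1602 and 643 CPM, and Atf4 at 1078 and 318 CPM. Of the 14 genes of the list measured between the 2 sorts, 11 were at least 2-fold lower and 1 higher in Cd74-high members, beside 45.5% lower and 7.87% higher of 6569 genes. Ddit3 levels were higher where the mitochondrial share was lower (r = -0.52, rho = -0.56 over 49 cells), and within the 36 Cd74-low cells r was -0.42.

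**Figure D4:**
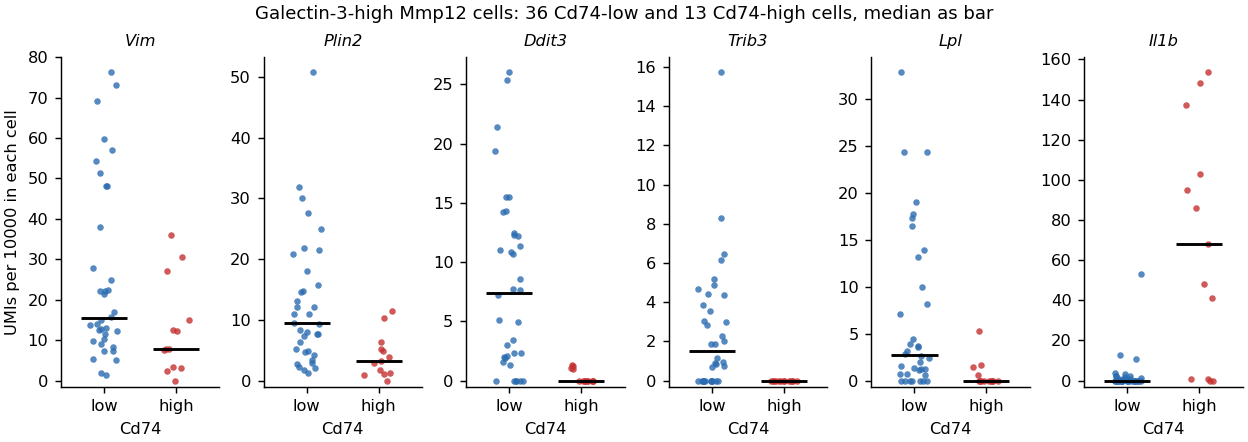
UMIs per 10000 of 6 genes in each of the 36 Cd74-low and 13 Cd74-high members of the light-damaged library, each panel with its own axis and the median as a bar. Trib3 is at 0 in every Cd74-high cell, and Il1b is high in most of them.

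Iron and antioxidant genes were higher than in both other sets. Of 19 measured genes, 15 were higher and none lower than in resident-marker cells (median 1.84), and 10 were higher and none lower than in Gpnmb and Ms4a7 cells (median 1.12). For Cd74-low members alone the counts were also 15 and 10 of 19, with medians of 1.80 and 1.06. All genes had medians of 0.70 and 0.85 there, with 36.2% and 42.4% higher. The second count was thus not far above the share of all genes. The ferritin genes Fth1 and Ftl1, whose protein stores iron, were at 33608 and 31639 CPM, 3.77-fold (3.72 to 3.83) and 3.57-fold (3.52 to 3.62) the resident-marker levels. Fth1 ranged from 32 to 893 UMIs per 10000 over the members, with a median of 265, against a median of 80.1 in resident-marker cells. Prdx1, a peroxidase gene, was 6.74-fold higher (6.40 to 7.09), Txnrd1, thioredoxin reductase, 10.2-fold (8.89 to 11.7), and Srxn1, which repairs oxidised peroxiredoxins, 11.3-fold (9.38 to 13.5). Slc7a11, the cystine importer that feeds glutathione synthesis, was 18.5-fold higher (15 to 22.8), at 143 CPM in Cd74-low and 383 CPM in Cd74-high members. Hmox1, which degrades haem, was 1.54-fold higher (1.40 to 1.69), under the 2-fold limit.

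Promoter sequences of 13 of these genes (Lgals3, Mmp12, Plin2, Vim, Trib3, Rhov, Srxn1, Slc7a11, Gclm, Txnrd1, Ddit3, Atf4 and Sesn2, chosen with their values known) were read from RefSeq on GRCm38.p6, 16 start sites in all. The 250 bases before each start were searched on both strands for 6 motifs, and 4 stretches of 150 bases are shown with 1 motif each in capitals. The AP-1 motif TGANTCA was found before 3 of the 16 starts, beside 6.75% of 32851 mouse promoters. The antioxidant response motif TGANNNNGC was found before 9 of 16, beside 35.2%, and can overlap AP-1. The core of the PU.1 motif, GAGGAAGT, was found before 1 start (2.44%), the E-box CACGTG before none (6.02%) and the hypoxia motif ACGTG, which also lies within that E-box, before 1 (16.6%). The amino acid response motif TGATGNAA, added after the values were seen, was found before 1 start (3.45%). The stretches are chosen because Mmp12 defines the cells and has 2 starts, and because Srxn1 and Slc7a11 are antioxidant genes higher in the members than in both other sets, chosen after their values were seen. The first, at chr9:7344247-7344396, plus strand, has the PU.1 core in capitals as its reverse complement, its first base 88 bases before the start.
Mmp12 start 1: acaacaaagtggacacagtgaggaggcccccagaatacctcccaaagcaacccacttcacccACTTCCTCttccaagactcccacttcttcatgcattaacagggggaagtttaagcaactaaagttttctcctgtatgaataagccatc
The second, at chr9:7347224-7347373, plus strand, has AP-1 in capitals, beginning 44 bases before that start.
Mmp12 start 2: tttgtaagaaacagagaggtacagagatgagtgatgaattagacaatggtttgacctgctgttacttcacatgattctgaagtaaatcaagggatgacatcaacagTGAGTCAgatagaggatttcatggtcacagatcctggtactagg
Before Srxn1, at chr2:152105374-152105523, plus strand, AP-1 in capitals occurs 2 times, beginning 102 and 45 bases before the start.
Srxn1: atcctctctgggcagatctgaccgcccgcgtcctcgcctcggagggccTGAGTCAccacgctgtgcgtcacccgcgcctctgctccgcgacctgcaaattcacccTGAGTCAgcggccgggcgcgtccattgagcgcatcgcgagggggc
Before Slc7a11, at chr3:50443614-50443763, minus strand, the amino acid response motif in capitals occurs 2 times in opposite directions, beginning 66 and 47 bases before the start.
Slc7a11: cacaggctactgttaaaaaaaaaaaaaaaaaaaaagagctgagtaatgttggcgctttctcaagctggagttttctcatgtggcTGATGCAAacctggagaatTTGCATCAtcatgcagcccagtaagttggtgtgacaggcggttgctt
A match describes letters only, and no binding was measured.

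Glycolysis genes were moderately higher than in resident-marker cells, and respiratory chain genes divided by genome. Of 15 measured glycolysis genes, 9 were higher and none lower than in resident-marker cells (median 1.08), and 7 of 15 were higher and none lower than in Gpnmb and Ms4a7 cells (median 0.73). All genes had medians of 0.51 and 0.64 in the same comparisons, so the second glycolysis median was close to that of all genes. Aldoa was at 1433 CPM, 3.43-fold the resident-marker level (3.20 to 3.68), and Pkm at 1310.5 CPM, 3.10-fold (2.88 to 3.34). All 12 measured protein-coding genes of the mitochondrial genome were lower than in resident-marker cells, with a median of -1.47, and 10 of 12 were lower than in Gpnmb and Ms4a7 cells, with a median of -1.11. mt-Atp6, a subunit of ATP synthase, was 3.05-fold lower than in resident-marker cells (2.88 to 3.23) and mt-Co1, a subunit of cytochrome oxidase, 2.37-fold lower (2.23 to 2.52). Of 20 respiratory chain genes in the nucleus, 1 was higher and none lower than in resident-marker cells, with a median of 0.20. It was Cycs, cytochrome c, at 2.33-fold (1.96 to 2.75). The median of 0.20 lay below the 0.51 of all genes.

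Transcripts of Cd74, H2-Aa, H2-Ab1 and H2-Eb1 lay almost wholly in the Cd74-high members, and most but not all measured cytokine genes were higher there. The median log2 ratio of the 7 measured MHC class II genes over resident-marker cells was 3.94 for all members and turned to -2.41 for Cd74-low members alone. H2-Aa and H2-Ab1, chains of a class II molecule, were at 11003 and 10331 CPM in Cd74-high and 6.80 and 29.4 CPM in Cd74-low members. Of the members' Cd74 UMIs, 99.8% lay in the 13 Cd74-high cells. The cytokine gene Il1b, the precursor of interleukin-1 beta, was at 7444 CPM in Cd74-high members, found in 11 of 13, and at 317 CPM in Cd74-low members, found in 14 of 36. Its median was 68.1 UMIs per 10000 in the former and 0 in the latter. Cxcl2, a chemokine gene for neutrophils, was at 12237 and 489 CPM, and Ptgs2, inducible cyclooxygenase, at 541 and 13.6 CPM. Of 20 cytokine and NF-kB genes measured between the 2 sorts, 15 were higher and 1 lower in the Cd74-high cells. The chemokine gene Ccl3 was at 2086 CPM in Cd74-high and 2066 CPM in Cd74-low members, with 24.1% of its UMIs in Cd74-high cells. Ccl2 was at 93.9 and 116 CPM, but 40 of its 64 UMIs lay in 1 Cd74-low cell. The order of these Ccl2 levels rested on that cell. Il1a, the precursor of interleukin-1 alpha, was at 1567 CPM in Cd74-high members and at 460 CPM in Cd74-low members, found in 22 of 36, beside 247 CPM in resident-marker cells. Over resident-marker cells 10 of 20 genes of this list were higher and 2 lower for all members, and 2 of 18 were higher and 5 lower for Cd74-low members alone.

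Several monocyte-type genes were also higher in the Cd74-high cells. Tgfbi, a matrix protein gene, was at 513 CPM in Cd74-high and 4.53 CPM in Cd74-low members. Acp5, tartrate-resistant acid phosphatase and a gene of the lesion macrophage list, was at 931 and 29.4 CPM. Ms4a7 was at 628 and 74.8 CPM, beside 1043 CPM in the Gpnmb and Ms4a7 cells it helped to choose. Lyz2, lysozyme, was at 10736 and 3627 CPM, beside 20713 CPM in Gpnmb and Ms4a7 cells and 2960 CPM in resident-marker cells. Of the 14 monocyte-type genes measured over Gpnmb and Ms4a7 cells, 3 were higher and 9 lower for all members, with a median of -2.27. For the Cd74-low members alone none of 13 was higher and 11 were lower, with a median of -3.60, beside 42.4% higher and 5.83% lower of 6482 genes.

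**Figure D5:**
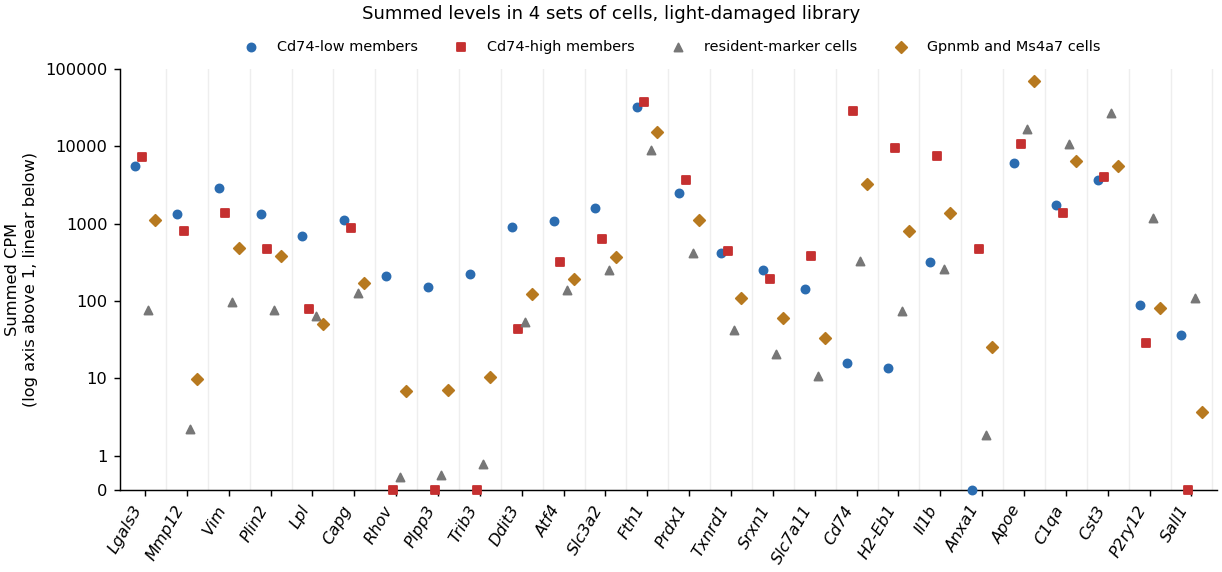
Summed CPM of 26 genes in Cd74-low members, Cd74-high members, resident-marker cells and Gpnmb and Ms4a7 cells of the light-damaged library, on an axis that is logarithmic above 1 CPM. Rhov, Plpp3, Trib3 and Sall1 had 0 UMIs in Cd74-high members and Anxa1 had 0 UMIs in Cd74-low members, while Fth1 and Prdx1 were above both other sets in both.

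Among the 12 genes with the highest ratio over resident-marker cells, 3 had 0 UMIs in Cd74-high members: Trib3, Rhov and Plpp3. Rhov, a small GTPase gene, had 93 UMIs in 20 Cd74-low members and was 415-fold the resident-marker level (246 to 743), at 160 CPM against 0.386 CPM. Plpp3, a lipid phosphatase gene, had 67 UMIs in 15 Cd74-low members and was 254-fold higher (152 to 443). After thinning, the mean share with a Rhov UMI was 27.1% of Cd74-low members, 0.121% of resident-marker cells and 1.29% of Gpnmb and Ms4a7 cells. In the highest cell lay 35.5% of the Rhov UMIs and 34.3% of those of Plpp3.

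The other 9 had UMIs in Cd74-high members too. Anpep, aminopeptidase N, was 165-fold the resident-marker level (105 to 263), in 17 Cd74-low and 10 Cd74-high cells. Ahnak2, a scaffold protein gene, was 87.8-fold higher (62.0 to 125), and Tst, a mitochondrial sulfurtransferase gene, 61.8-fold (45.4 to 84.1), with 39.2% of its UMIs in 1 cell. The C-type lectin receptor genes Clec4e and Clec4d were 67.6-fold (52.1 to 87.7) and 53.6-fold (40.5 to 70.6) higher. Clec4e was at 722 CPM in Cd74-high and 31.7 CPM in Cd74-low members, and Clec4d at 188 and 147 CPM. Tnip3, an inhibitor of NF-kB signalling, was 47.6-fold higher (35.5 to 63.6). Lilr4b, an immunoglobulin-like receptor gene found in 46 of 49 members, was 39.0-fold higher (34.9 to 43.5), and its count is uncertain because a near-identical neighbour can share its reads. Anxa1 (59.5-fold, 42.3 to 83.3) and H2-Eb1 (31.2-fold, 29.2 to 33.3) rested on Cd74-high cells. In Cd74-low members Anxa1 had 0 UMIs and H2-Eb1 was 5.40-fold lower than in resident-marker cells (2.48 to 14.7).

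Over the Gpnmb and Ms4a7 cells the 12 highest genes again included Rhov (23.1-fold, 16.7 to 32.1), Trib3, Plpp3 (16.1-fold, 11.4 to 22.9), Tst, Ahnak2 and Anpep, with Lpl. The other 5 were higher in Cd74-low than in Cd74-high members. Gadd45a, a growth arrest gene of the stress response, was 10.5-fold higher (8.23 to 13.3), at 256 CPM in Cd74-low and 28.9 CPM in Cd74-high members. Ass1, an enzyme of arginine synthesis, was 9.06-fold higher (6.87 to 11.9), and Rnf128, a ubiquitin ligase gene, 8.77-fold (6.94 to 11), with 0 UMIs in Cd74-high members. Sgk1, a kinase gene induced by serum and glucocorticoids, was 6.39-fold higher (5.79 to 7.04), at 1196 and 310 CPM, and Rassf1 6.26-fold (5.21 to 7.50).

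Homeostatic microglia genes were low. None of the 17 measured genes of that list outside the rule was higher and 16 were lower than in resident-marker cells, with a median log2 ratio of -2.66 for all members and -2.53 for Cd74-low members. Cst3, the protease inhibitor cystatin C, was at 3776 CPM, 7.06-fold lower (6.77 to 7.36), and ranged from 6.61 to 149 UMIs per 10000 against a median of 290 in resident-marker cells. Csf1r, the receptor on which microglia depend for survival, was 6.35-fold lower (5.57 to 7.28) and Cx3cr1, whose promoter drives the reporter, 4.54-fold lower (3.77 to 5.53). In 1 cell lay 48.6% of the members' Cx3cr1 UMIs, and without that cell the level was 8.64-fold lower. Against Gpnmb and Ms4a7 cells 2 of 15 genes of the list were higher and 3 lower, with a median log2 ratio of -0.51. The 2 higher genes were Sall1, 7.39-fold (3.83 to 13.7), and Sparc, a matrix protein gene, 3.02-fold (2.56 to 3.56).

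The 10 genes with the lowest ratio over resident-marker cells were between 20.6-fold and 11.7-fold lower. Fscn1, an actin bundling gene, was lowest at 8.62 CPM against 178 CPM, 20.6-fold lower (8.84 to 63.6), on 5 UMIs. Lag3, an inhibitory receptor gene, was 17.5-fold lower (11.2 to 29.1), and Ccl12, a chemokine gene, 14.6-fold lower (9.89 to 22.6). The enzymes of lipid mediators Ltc4s and Ptgs1 were 14.0-fold (8.48 to 25) and 12.8-fold (8.67 to 19.8) lower. The others were Crybb1, Slco2b1, Adgrg1, Fgd2 and Capn3.

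Complement genes were lower than in both other sets. Of 8 measured genes none was higher and 7 were lower than in resident-marker cells (median -2.40), and 8 of 11 were lower than in Gpnmb and Ms4a7 cells (median -1.78). C1qa, a chain of the first complement component, was at 1645 CPM, 6.58-fold lower than in resident-marker cells (6.18 to 7.02) and 3.91-fold lower than in Gpnmb and Ms4a7 cells (3.67 to 4.18). It ranged from 0 to 99.98 UMIs per 10000 with a median of 8.70, against a median of 107 in resident-marker cells. C1qa was at 1724 CPM in Cd74-low and 1393 CPM in Cd74-high members, so both sorts were low.

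Interferon-stimulated genes were also lower. Against Gpnmb and Ms4a7 cells 15 of 17 were lower and none higher (median -1.80). Against resident-marker cells 10 of 16 were lower and 1 higher, with a median of -1.17, which became 0.16 over all 174 cells past the galectin-3 limit whether or not they had an Mmp12 UMI. Ifi27l2a, an interferon-induced gene, was at 285 CPM, 4.93-fold lower than in resident-marker cells (4.23 to 5.78). Irf7, the transcription factor that amplifies the response, was 5.30-fold lower than in Gpnmb and Ms4a7 cells (3.75 to 7.76). Of the 14 genes measured between the 2 sorts, 8 were higher and none lower in Cd74-high members. Isg15 was the gene that was higher than in resident-marker cells, 2.06-fold (1.69 to 2.48). Of its 111 UMIs, 28 lay in 1 member, and without that cell the level was 1.59-fold, under the 2-fold limit.

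The 10 lowest genes against the Gpnmb and Ms4a7 cells were led by the chemokine gene Ccl7, with 6 UMIs and 10.3 CPM against 556 CPM, 53.7-fold lower (24.7 to 146). Ccl12 was 13.9-fold lower (9.43 to 21.6). Fcrls, an Fc receptor-like gene of microglia, was 10.9-fold lower (7.21 to 17.5), and the acute-phase gene Saa3 11.4-fold lower (5.20 to 31.0). Apoe stood among the 10, with the lectin receptor genes Clec4a3 and Clec12a, the membrane protein genes Ms4a4c and Ms4a6b, and AW112010.

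Lysosomal genes moved little as a list, with 9 of 25 higher and 4 lower than in resident-marker cells (median 0.24) and 5 higher and 2 lower than in Gpnmb and Ms4a7 cells (median 0.41). Cd68, a lysosomal membrane gene of phagocytes on the list of general macrophage genes, was at 1895 CPM, 3.47-fold the resident-marker level (3.26 to 3.69), while 8 of the 15 genes of that list were lower and 2 higher. Ctsd, cathepsin D, was at 16691 CPM in Cd74-low and 4224 CPM in Cd74-high members. Ctss, cathepsin S, was 3.45-fold lower than in resident-marker cells (3.3 to 3.62). Spp1, osteopontin, was at 4656 CPM, 13.7-fold the resident-marker level (13.2 to 14.3) and 1.21-fold the Gpnmb and Ms4a7 level (1.16 to 1.26), with 28.1% of its UMIs in 1 cell. Gpnmb, which helped to choose the second set, was found in 26 of 49 members.

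Other galectins and matrix enzymes did not follow Lgals3 and Mmp12 as families. Lgals1, galectin-1, was at 1297 CPM in the members, 5.57-fold the resident-marker level (5.16 to 6) and 1.11-fold the Gpnmb and Ms4a7 level (1.03 to 1.19). It was the 1 higher of 4 measured galectin list genes outside the rule, while Lgals9 was at 91.4 CPM against 176 CPM in resident-marker cells. Of 10 measured genes of matrix proteases and their inhibitors, 4 were higher and 3 lower than in resident-marker cells (median 0.43), and 2 of 9 were higher and 1 lower than in Gpnmb and Ms4a7 cells. Adam8, a membrane metalloprotease gene, was 22.4-fold the resident-marker level (16.1 to 30.5) and 3.78-fold the Gpnmb and Ms4a7 level (2.75 to 5.12). Plaur, the receptor of urokinase, was at 329 CPM, 7.54-fold (6.46 to 8.75) and 2.48-fold (2.12 to 2.89), and its ligand Plau at 229 CPM, 2.39-fold (2 to 2.84) and 1.43-fold (1.19 to 1.71). Mmp2, gelatinase A, had 1 UMI.

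Transcription factor genes were mixed, with 5 of 22 higher and 7 lower than in resident-marker cells (median -0.20) and 3 of 23 higher and 3 lower than in Gpnmb and Ms4a7 cells (median 0.34). Spi1, which encodes the myeloid factor PU.1, was at 541 CPM, 1.23-fold the resident-marker level (1.1 to 1.37). Bhlhe41 was at 444 CPM in Cd74-low members against 7.22 CPM, a single UMI, in Cd74-high members, and 36.0% of its UMIs lay in 1 cell. Its relative Bhlhe40 went the other way, at 52.1 and 224 CPM. Maf, a factor of mature resident macrophages, was at 41.4 CPM, 4.79-fold lower than in resident-marker cells (3.22 to 7.48). Nfe2l2, which encodes NRF2, a driver of antioxidant genes, was at 290 CPM, 2.03-fold the resident-marker level (1.73 to 2.37).

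Most measured growth factor genes were lower in Cd74-high than in Cd74-low members. Igf1 had 71 UMIs in 10 Cd74-low cells, 35.2% of them in 1 cell, and 0 UMIs in Cd74-high members. Osm, oncostatin M, was at 245 CPM, 3.30-fold the resident-marker level (2.77 to 3.90), with 40.1% of its UMIs in 1 cell. Csf1, the ligand of Csf1r, was at 50 CPM, 3.01-fold the resident-marker level (2 to 4.36) and 5.19-fold that of Gpnmb and Ms4a7 cells (3.29 to 7.94). Of 9 measured growth factor genes 3 were higher and 1 lower than in resident-marker cells, near the 27.4% and 8.73% of all genes. In Cd74-high over Cd74-low members 2 of 11 were higher and 8 lower, beside 7.87% higher and 45.5% lower of 6569 genes.

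Receptors for debris were also divided, with 5 of 15 higher and 5 lower than in resident-marker cells (median -0.06). Msr1, a scavenger receptor gene, was 4.66-fold higher (3.54 to 6.04), while Fcgr3, an antibody receptor gene, was at 355 CPM, 2.74-fold lower (2.39 to 3.15). Itgb5, an integrin subunit gene that serves uptake of photoreceptor debris, was at 51.7 CPM, 4.22-fold lower (2.95 to 6.25). Trem2, a lipid-sensing receptor gene, was at 1529 CPM in Cd74-low and 614 CPM in Cd74-high members, against 2112 CPM in resident-marker cells.

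Few members had transcripts of dividing cells. Mki67 had 2 UMIs in 1 member and Top2a 5 UMIs in 2 members, and 1 of 11 measured cell cycle genes was higher and 3 lower than in resident-marker cells. Of 18 immediate-early and heat shock genes 1 was higher and 3 were lower than in resident-marker cells, with a median of -0.43. The higher one was Atf3, at 1364 CPM and also on the ATF4 list, while Fos was at 179 CPM against 632 CPM. In Cd74-high over Cd74-low members 10 of these 18 were higher and 2 lower, with Hspa1a at 8216 and 2401 CPM. Of 89 ribosomal protein genes, 2 were higher and 19 lower than in resident-marker cells for all members, and 2 were higher and 54 lower for Cd74-low members alone. Of 9 measured hypoxia genes 4 were higher, Mif and Ero1l among them, and 1 was lower than in resident-marker cells (median 0.95).

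The 125 cells past the galectin-3 limit without an Mmp12 UMI lay between the members and the Gpnmb and Ms4a7 cells in several genes, and most of them belong to the latter set. Vim was at 1157 CPM, Plin2 at 753 CPM, Ddit3 at 353 CPM and Trib3 at 55.3 CPM in these cells. Apoe was at 37396 CPM, above the 7159 CPM of the members. Their median mitochondrial share was 1.83%. Whether these cells lack Mmp12 or it was not captured cannot be told apart at these depths.

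The single control member had 4367 UMIs and 1986 genes, 20 Lgals3 UMIs and 2 Mmp12 UMIs. It had 0 Vim UMIs, 2.29 Plin2 UMIs per 10000 and 4.58 Cd74 UMIs per 10000, with a microglia sum of 6.87 and a mitochondrial share of 0.985%. In the control library 7 of 3948 cells passed the galectin-3 limit and 25 had an Mmp12 UMI, against 174 and 131 of 6799 light-damaged cells. Median depth was 4885 UMIs in passing control cells and 7364 in passing light-damaged cells. Cells were also thinned to 3000 UMIs in a single random draw before the rule was applied, and 1 control cell and 0.412% of light-damaged cells met it. Cells with fewer than 3000 UMIs, which only the control library had, were left out of this step. Group and library cannot be told apart.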

How the data were processed

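Cx3cr1-YFP-positive retinal cells of 1 control and 1 light-damaged pool were profiled by 10x 3' sequencing. The authors deposited filtered gene by barcode matrices of whole-number UMI counts, made with Cell Ranger 2.0.0 on mm10, per the submitters' processing notes. Of 10824 barcodes, 10747 were kept, having 300 or more genes and no more than 10% of UMIs from the mitochondrial genome, and no doublets were removed. The members, gene lists and comparison sets were chosen with earlier results of these data known.

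Cells were sorted into sets by UMIs per 10000. Counts were summed per set and scaled to CPM, and ratios carry exact Poisson 95% intervals for counting error. For log2 ratios 0.5 was added to each count. The 10 genes that chose the sets were left out of the counts and medians of genes and gene lists. The sums of cell type markers include those of them that are markers. Genes were named when they were among the 12 highest or 10 lowest ratios with at least 100 CPM in either set, or belonged to a gene or marker list. Shares of cells with a UMI after thinning to 3000 UMIs are means over all draws (hypergeometric), and other shares carry Clopper-Pearson intervals. No test was made, since each group has 1 library. The division by Cd74, the values without the 2 members with most Mmp12 UMIs, the promoter genes and the motif TGATGNAA were chosen after values were seen. The ratios and their intervals were checked on summed counts simulated with Poisson error alone, which leaves out unevenness between cells. The rules for cells and the thinning were not part of that check. Python 3.11.15, NumPy 2.4.6, SciPy 1.17.1, pandas 2.3.3 and scanpy 1.11.5 were used. Some genes of the lists are not reported here by name.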

Additional observations from a re-analysis of the deposited data

How the results depend on the processing

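The share of light-damaged cells in the set followed the rule: it was 0.456% with at least 40 Lgals3 UMIs per 10000, 0.485% with at least 2 Mmp12 UMIs, 2.56% with no Mmp12 minimum, 0.412% after thinning to 3000 UMIs and 0.529% for Cd74-low members alone. Control members numbered 3 with at least 10 Lgals3 UMIs per 10000 and 7 with no Mmp12 minimum. With no Mmp12 minimum the median mitochondrial share was 1.62%, 781 genes were at least 2-fold higher than in resident-marker cells, 710 were higher and 135 lower than in Gpnmb and Ms4a7 cells, and 3 lists had a median at least 2-fold from equal in the latter comparison, against 10. With at least 10 Lgals3 UMIs per 10000, 1163 genes were higher than in Gpnmb and Ms4a7 cells.

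Counts of genes moved with the CPM minimum by its construction. Over resident-marker cells 964 were higher and 349 lower at 50 CPM, and 7950 and 1241 with no minimum. Over Gpnmb and Ms4a7 cells they were 911 and 176, and 6308 and 885. With a pseudocount of 10 CPM, 1012 and 940 genes were higher.

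Direction was followed only for list medians and genes at least 2-fold from equal in the main analysis. The lists numbered 12 over resident-marker cells and 10 over Gpnmb and Ms4a7 cells. Outside the division by Cd74 and the removal of the 2 cells with most Mmp12 UMIs, their medians kept direction in 295 of 296 values. The exception was the interferon list over resident-marker cells with no Mmp12 minimum, at 0.16. Under that setting log2 ratios over resident-marker cells also turned to 0.51 for AW112010, 0.85 for Apoe, 0.57 for Irf7, 1.78 for Ms4a4c and 0.88 for Ms4a6b, and those over Gpnmb and Ms4a7 cells to -0.18 for Ptgs2 and -0.053 for Tnip3. For Cd74-low members alone, those over resident-marker cells turned to -2.41 for the MHC class II list, -0.74 for Anxa1, -4.28 for Cd74, -3.56 for H2-Aa, -2.41 for H2-Ab1, -2.32 for H2-Eb1, -0.24 for Ms4a7 and -0.67 for Saa3. Those over Gpnmb and Ms4a7 cells turned to -4.83 for the MHC class II list, -4.50 for Anxa1, -7.56 for Cd74, -0.93 for Clec4e, -7.08 for H2-Aa, -4.83 for H2-Ab1, -5.77 for H2-Eb1, -2.05 for Ptgs2, -1.82 for S100a4 and -0.21 for Tnip3. The cause of these changes of direction was not tested.

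No paired analysis was possible because each group has 1 library, and leaving out a replicate was not possible for the same reason. Counts of a few UMIs, as for Fscn1, Ccl7 and Sall1, limit precision.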
